A study of Rattus norvegicus with 12 samples.

Results

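Baseline gene expression was read from the 3 untreated control libraries of a rat disc cell series of 12 RNA-seq libraries. They were chosen by their label alone, as the libraries of primary nucleus pulposus cells of Wistar rats that carried the control shRNA vector (PLKO) and received no TNF-a (the group PLKO_CTR, sets 1, 2 and 3). No treated or knockdown library entered any value below, except that the authors scaled these libraries together with others. Per the labels' protocols, the cultures were started from tissue explants, kept in DMEM that contained 10% serum, were transduced with a lentivirus, and were left without cytokine for the last 24 h, when the treated arms of the series received 50 ng/mL TNF-a. By these labels they are cultured disc cells and not the tissue itself. The labels number the sets without saying whether each stands for a rat, a separate culture or an experiment, and give no age, so the spread between sets may be biological or technical. Only 1 library per set was used, so no difference between sets could be tested, and each is described by its values.

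The nucleus pulposus forms the soft centre of each disc between the vertebrae. Its cells derive from the notochord, live with little oxygen and under high osmolarity, and in tissue make a matrix rich in the proteoglycan aggrecan and in type II collagen. Grown as monolayers in serum, disc cells are known to take on features of fibroblasts, with type I collagen, fibronectin and contractile proteins. TonEBP, the product of Nfat5, is the transcription factor that adapts these cells to high osmolarity, and it was left in place in the libraries described here. The annulus fibrosus around the nucleus is a tendon-like tissue.

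The libraries held 16861613, 16560983 and 10703380 reads on the 13373 listed genes in sets 1, 2 and 3. Levels are normalised reads, the authors' deposited scale, in which 1 read was worth 0.723, 0.871 and 1.21. Wherever 3 levels are given together they stand in the order of sets 1, 2 and 3. Reads grow with the length of a transcript, and no transcript lengths were used here, so a rank orders genes by reads and not by molecules. A gene at 0 reads may still have had up to 3, which is 2.17, 2.61 and 3.62 normalised reads in the 3 libraries, a limit that covers counting error only.

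The label was checked against 19 markers of nucleus pulposus and notochord, of which 12 had a row in the table. The level of Lgals3, the galectin-3 gene, was 4081, 5227 and 5584 normalised reads, and these were close to each other (log2 range 0.45, the highest minus the lowest library on the log2(value + 1) scale). By reads Lgals3 ranked 468, 397 and 314 in sets 1, 2 and 3. Foxf1, a mesodermal transcription factor gene, stood at 126, 180.4 and 139 normalised reads. Pax1, a transcription factor gene of the sclerotome, was at 50.6, 159 and 94.0 normalised reads. Pax1 thus varied more than Foxf1, with set 1 the lowest. Krt8, a simple-epithelium and notochord keratin, had 241, 141 and 2639 normalised reads, a 18.7-fold spread. Its partner keratin Krt18 held 0.723, 0 and 31.3 normalised reads, so set 3 was the library with most reads of both. Cd24, a surface marker of nucleus pulposus cells, was at 23.9, 41.8 and 6.03 normalised reads. Foxa1, a transcription factor gene of notochord and endoderm, was at 2.89, 4.36 and 19.3 normalised reads. The notochord genes T, Noto, Shh and Foxa2, and Krt19, Car12 and Basp1, were not analysed here. Tek, an endothelial and disc progenitor receptor, was at 10.1, 6.97 and 14.5 normalised reads. Of the 12 markers, 7 were detected, with at least 10 normalised reads in each library, against 85.7% of all 13373 genes. Lgals3 and Foxf1 were even, whereas Krt18, Foxa1, Cd24, Tek and Ptn were under 10 in at least 1 library.

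The reads were led by matricellular and matrix genes. Thbs2, which encodes thrombospondin-2, a secreted protein that modulates cell contact with matrix, was first by geometric mean, with 114696, 402808 and 228200.2 normalised reads (248568 ± 145132, SD, n = 3). Fn1, the fibronectin gene, followed with 94725, 200877 and 251914 normalised reads, and it was the gene with most reads in set 3. Thbs1, thrombospondin-1, held 122415, 285095 and 88527 normalised reads and was the gene with most reads in set 1. These leaders were within the first 6 ranks of every library. Actb, cytoplasmic beta-actin, was at 68772, 90395 and 55173 normalised reads. Flna, the actin crosslinker filamin A, was at 43859, 71815 and 58176 normalised reads. These genes of the actin skeleton were highest in set 2. Ltbp2, a latent TGF-beta binding protein of microfibrils, stood at 30028, 74739 and 104827 normalised reads. Ahnak, a very large scaffold protein, was at 38826, 74938 and 102968 normalised reads. Both Ltbp2 and Ahnak were lowest in set 1 and highest in set 3. Secreted defence proteins stood beside the matrix genes. C3, the central complement component, had 25844, 105796 and 65585 normalised reads. Lcn2, the iron-carrier-binding lipocalin, had 29183, 115972 and 37497 normalised reads. Both were highest in set 2. The mitochondrial oxidase gene Mt-co1 completed the first 10, with 34374, 115104 and 41608 normalised reads.

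**Figure D1:**
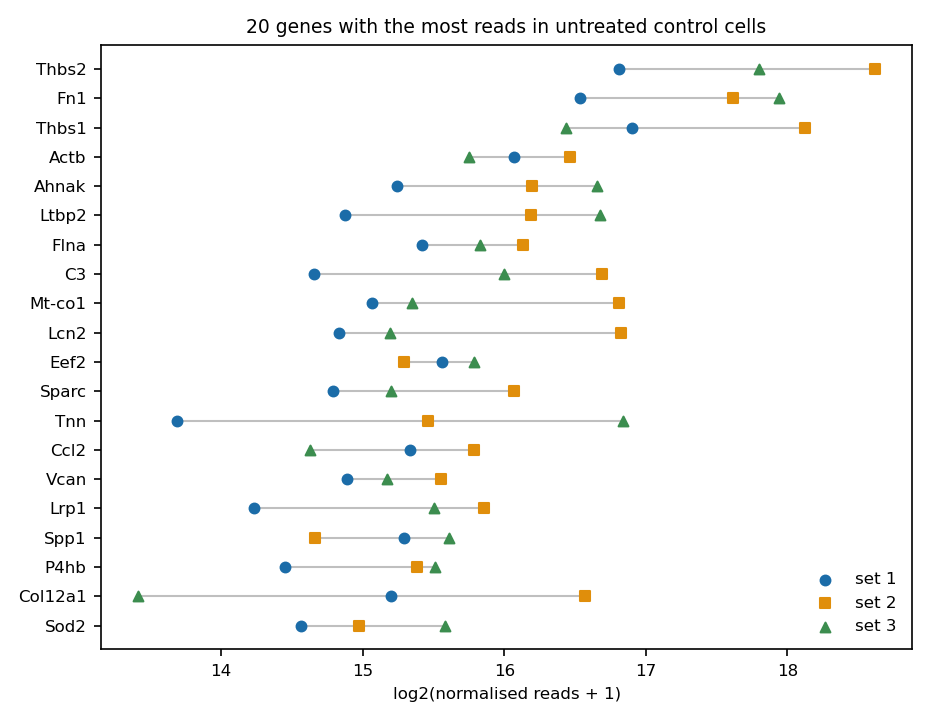
Normalised reads of the 20 genes with the highest geometric mean over the 3 untreated control libraries, on a log2(value + 1) axis, 1 marker per library and a grey line from lowest to highest. Thbs2, Fn1 and Thbs1 lie above the rest, and Col12a1 and Tnn have the longest lines.

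Further down the same 20 were genes of secretion and matrix. Sparc, a collagen-binding matrix protein, was at 28375, 68867 and 37688 normalised reads. Vcan, the large proteoglycan versican, was at 30328, 47957 and 36941 normalised reads. The endocytic receptor gene Lrp1 had 19224, 59326 and 46413 normalised reads. Each of these 3 was lowest in set 1 and highest in set 2. P4hb, a subunit of collagen prolyl hydroxylase and a disulfide isomerase, had 22367, 42834 and 46568 normalised reads. Spp1, osteopontin, held 40134, 25955 and 50028 normalised reads and was lowest in set 2. Among genes with inflammatory roles, Ccl2, which attracts monocytes, ranked 9, 17 and 32. Sod2, the mitochondrial superoxide dismutase, ranked 29, 33 and 12. Tenascin-N, Tnn, was the least even of the 20 beside Col12a1, with 13221, 45180.3 and 117440.4 normalised reads, so it ranked 82, 21 and 3 in the 3 libraries. For Col12a1, a fibril-associated collagen of tendon, the order was another, with 37694, 97326 and 10907 normalised reads and ranks of 12, 7 and 121.

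A small number of genes took a large part of the reads, more so in set 2. The 10 leading genes of each library held 5.42%, 10.8% and 8.76% of its reads (mean 8.33% ± 2.73, SD, n = 3). For the 100 leading genes the shares were 19.5%, 27.9% and 23.9%. Of the 100 leading genes of each library, 56 were common to all 3 libraries. Sets 1 and 2 shared 72, sets 1 and 3 shared 65 and sets 2 and 3 shared 75.

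At least 10 normalised reads in each library were found for 11455 of 13373 genes (85.7%), called detected below. Among the 12392 genes that averaged 10 or more normalised reads (called tested below) the median log2 range was 0.64, with quartiles of 0.37 and 1.10. Of these, 5670 (45.8%) lay within 1.5-fold, 3584 spread at least 2-fold and 1181 (9.53%) at least 4-fold from lowest to highest, on the log2(value + 1) scale. That last count was 371 without set 3, 655 without set 1 and 904 without set 2. Each was taken over the genes that averaged 10 or more in the remaining 2 libraries, and not over the 12392. With all 3 libraries the count was 488 among genes that averaged 100 or more.

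Set 2 stood between the other libraries more often than they did. Its level was the middle of the 3 for 47.8% of the 12392 genes, against 22.7% for set 1 and 29.5% for set 3. Among the genes spread at least 4-fold that share was 60.1%. The most frequent order of those was set 1 over set 2 over set 3 (442 genes, 3.57% of all tested), followed by its reverse (268 genes, 2.16%). Spearman's rho across the genes was 0.954 for sets 1 and 2, 0.910 for sets 1 and 3 and 0.949 for sets 2 and 3. These values describe genes that share a table, an annotation and a vector, and genes are not replicates. By the median absolute log2 difference sets 2 and 3 were the closest (0.30, against 0.39 for sets 1 and 2 and 0.49 for sets 1 and 3). By the count of genes at least 4-fold apart it was sets 1 and 2 (370 genes, against 699 for sets 2 and 3 and 898 for sets 1 and 3). The bulk of genes and the wide tail thus order the 3 libraries differently.

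Skeletal muscle genes made up the widest part of that tail. All 29 listed skeletal muscle and myogenic genes with a row spread at least 4-fold, against 9.53% of all tested genes. Set 3 was the lowest for 28 of them, against 35.8% of all tested genes, and 27 were in the order of set 1 over set 2 over set 3, against 24.0%. The list was chosen with earlier results of these data known, so these counts describe it and are no test. Myh1, Myh7 and Chrna1 were under 10 in sets 2 and 3 and averaged 10 or more only through set 1. The listed genes Myh2, Myh4, Myh8, Myf5, Myf6 and Pax7 had no row and were not analysed here. Acta1, the actin of the muscle thin filament, held 21181, 5798 and 86.8 normalised reads, so set 1 was far above set 3. Myh3, the embryonic myosin heavy chain, held 20087 and 10237 in sets 1 and 2 and 0 reads in set 3, so it was at least 2832-fold lower in set 3 than in set 2. The regulator genes that drive muscle differentiation followed the same order. Myog, myogenin, had 2104, 845 and 0 normalised reads. Myod1, which commits cells to muscle, had 1064, 225 and 7.23 normalised reads. Both were highest in set 1 and at 0 or a few reads in set 3, where Acta1 still had 72 reads.

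The proximal promoters of Acta1, Myh3 and Myog are shown because the myogenic regulators bind E-boxes, the sequence CANNTG, and these genes had 1 order over the libraries. Each line gives the 250 bases before the RefSeq gene start on build GRCr8, 5′ to 3′ on the gene's strand, with E-boxes in capitals. The build differs from that of the authors, so positions belong to GRCr8 alone. The windows are chr19:68784195-68784444 on the minus strand, chr10:52268935-52269184 on the plus strand and chr13:48297226-48297475 on the plus strand.
Acta1: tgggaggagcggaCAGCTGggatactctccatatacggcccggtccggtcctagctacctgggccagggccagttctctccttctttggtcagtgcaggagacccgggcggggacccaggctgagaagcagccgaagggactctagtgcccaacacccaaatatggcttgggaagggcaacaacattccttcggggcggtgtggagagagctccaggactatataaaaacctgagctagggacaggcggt
Myh3: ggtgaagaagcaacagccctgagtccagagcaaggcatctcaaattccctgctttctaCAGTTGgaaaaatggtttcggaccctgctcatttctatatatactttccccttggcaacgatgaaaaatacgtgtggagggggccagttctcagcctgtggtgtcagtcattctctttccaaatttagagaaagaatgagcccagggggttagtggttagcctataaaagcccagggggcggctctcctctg
Myog: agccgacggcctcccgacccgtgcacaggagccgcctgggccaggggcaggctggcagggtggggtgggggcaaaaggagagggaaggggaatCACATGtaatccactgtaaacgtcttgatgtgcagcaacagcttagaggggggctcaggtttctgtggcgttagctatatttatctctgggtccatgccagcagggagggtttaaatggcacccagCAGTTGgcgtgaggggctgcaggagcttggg
The Acta1 and Myh3 windows hold 1 E-box each and the Myog window holds 2. An E-box, which reads as CANNTG on both strands, was found in 22 of 24 muscle genes with a promoter entry (91.7%) and in 65.2% of all 27457 promoters of that length. For CAGCTG, an E-box variant and so contained in the first count, the shares were 9 of 24 (37.5%) and 11.9%. TATAAA, searched on both strands, was present in 9 of 24 (37.5%) and in 13.1% of all promoters. The CArG box, the site of serum response factor, was found in the Acta1 window and in no other of the 24, against 1.5% of all. These are matches of letters and no measure of binding.

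Most parts of the contractile apparatus had reads in sets 1 and 2. The cardiac and embryonic actin Actc1 had 11943, 4079.9 and 2.41 normalised reads, the last from 2 reads. The regulatory light chain gene Mylpf had 10444, 3378 and 6.03 normalised reads. The essential light chain gene Myl1 had 2909, 864 and 3.62 normalised reads. In each of these set 3 was far below set 1. Troponin genes of both fibre types were present. Tnnt3, the fast troponin T, was at 3044, 835 and 14.5 normalised reads. Tnni1, the slow troponin I, was at 1721, 617 and 1.21 normalised reads. Both had set 1 as the highest library. Ryr1, the calcium release channel, was at 1328, 569.9 and 8.44 normalised reads. Atp2a1, the calcium pump of the sarcoplasmic reticulum, was at 1032, 239 and 0 normalised reads. Genes for fusion and for the nerve contact were read in sets 1 and 2 as well. Tmem8c, the fusion protein myomaker, was at 380.4, 169.9 and 0 normalised reads. The acetylcholine receptor subunit gene Chrnd was at 828, 119 and 0 normalised reads. Some listed genes had few reads in set 1 as well. Myh1, the adult fast myosin heavy chain, had 44.8, 3.49 and 0 normalised reads. Ckm, the muscle creatine kinase, had 82.4, 24.4 and 0 normalised reads. Of the 29 genes, 12 had 0 reads in set 3 and 6 had 1 to 3 reads.

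**Figure D2:**
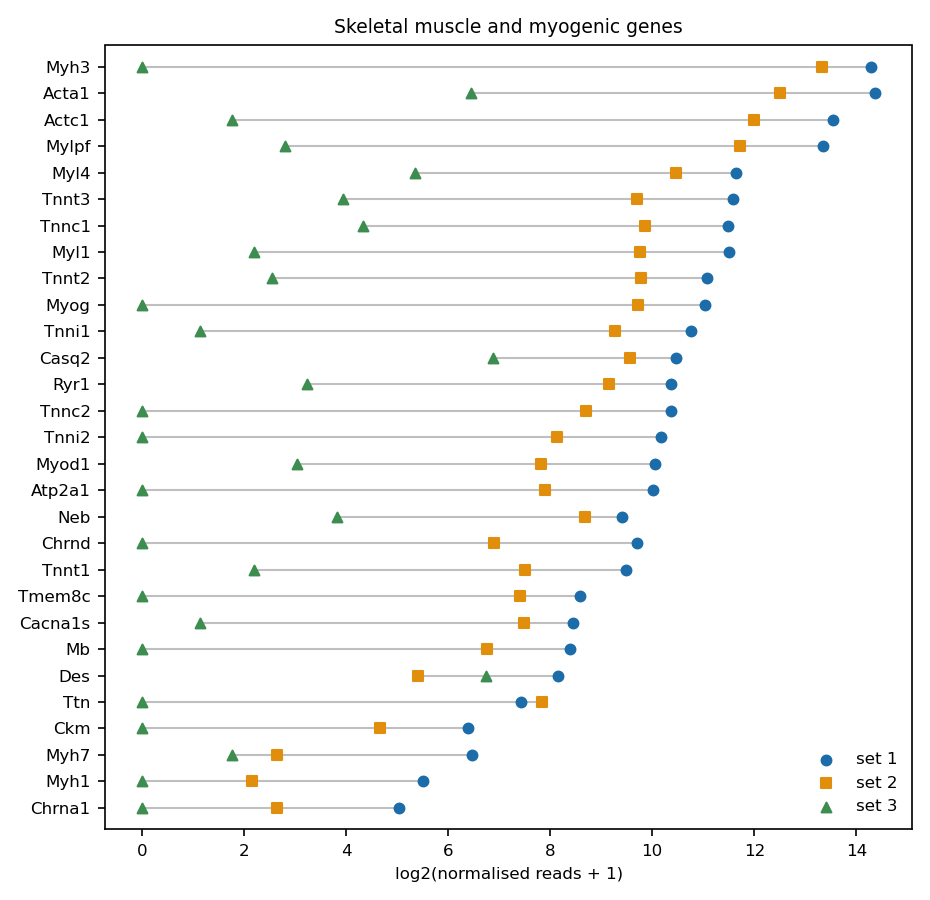
Normalised reads of the 29 skeletal muscle and myogenic genes in the 3 untreated control libraries, on a log2(value + 1) axis, ordered by mean, with a grey line from lowest to highest. Set 1 lies to the right in all but Ttn, and set 3 lies to the left in all but Des.

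Muscle genes differed between sets 1 and 2 as well. The ratio of set 1 to set 2 had a median of 3.10 over the 29 genes, from 0.748 for Ttn, the giant sarcomere spring titin, to 16.7 for Myh7, the slow myosin heavy chain. It was above 1 for 28 of them. The list summed to 92912, 33842 and 437 normalised reads in sets 1, 2 and 3, or 0.762, 0.235 and 0.00339%. Des, desmin, which smooth muscle also makes, was the only member with its lowest level in set 2 (283, 41.8 and 106 normalised reads). In bulk RNA, fewer muscle cells and less muscle RNA per cell cannot be told apart.

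Genes with other known roles went along with the muscle genes. Of all listed genes, 37 had at most 3 reads in set 3 and at least 100 normalised reads in both other libraries, 25 of them at 0, while no gene had that pattern with set 1 or set 2 as the low library. These counts include muscle genes outside the list, such as Actn2, sarcomeric alpha-actinin, at 1753, 763 and 0 normalised reads. Mybpc1, a myosin-binding protein, was at 715, 376 and 0 normalised reads. Mstn, the muscle growth inhibitor myostatin, was at 159, 188 and 0 normalised reads. Genes better known outside the sarcomere are also among the 37. One is Igf2, a fetal growth factor, with 4139 and 1300.1 normalised reads in sets 1 and 2 and 0 reads in set 3, at least 359.6-fold lower than in set 2. Dkk3, a secreted protein of the Dickkopf family, had 3065, 6474 and 3.62 normalised reads, and there set 2 was the highest. Lpl, lipoprotein lipase, which muscle and fat cells make, had 6789, 2261 and 3.62 normalised reads. F13a1, the coagulation factor XIII A chain, had 1335, 645 and 1.21 normalised reads. A row named Olr1684, an olfactory receptor gene, had 1165, 273 and 0 normalised reads, and reads of overlapping genes could not be told apart. The muscle list summed to 92912, 33842 and 437 normalised reads, in the same order, and its part in these values was not tested.

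The row of the microRNA gene Mir675 lay next to Igf2 in this pattern, with 5882, 621 and 0 normalised reads. In RefSeq (GRCr8) Mir675 lies within the H19 gene, an imprinted non-coding RNA, and Igf2 is the next gene entry. H19 itself was not analysed here. The mature sequences are printed to identify the row, with the seed (bases 2 to 8) in capitals, as RefSeq gives them on GRCr8.
rno-miR-675-5p: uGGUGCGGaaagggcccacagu
rno-miR-675-3p: uGUAUGCCcuaaccgcucagu
Reads of such a row come from a longer RNA that covers the locus, and they do not measure the mature microRNA. Of 28 rows named for microRNA genes, 15 averaged 10 or more, and Mir675 had the highest.

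Few markers of other cell types had a row, and most of those were low. Of 18 leukocyte and macrophage markers 7 had a row, and the list summed to 0.00628, 0.00348 and 0.00275% of normalised reads. Csf1r, a receptor that defines macrophages, was at 5.06, 2.61 and 0 normalised reads. Itgam, a macrophage integrin, was at 6.51, 2.61 and 0 normalised reads. Csf1r and Itgam were thus near the floor in all libraries, whereas other members with a row, given next, had more reads in some or all libraries. Cd74, the invariant chain of class II antigen presentation, was at 339, 76.7 and 1.21 normalised reads. The class II gene RT1-Da followed it, at 96.2, 20.9 and 0 normalised reads, in the order of the muscle genes. Ptprc, the pan-leukocyte antigen, was not analysed here. Cd14, the endotoxin co-receptor, was at 169.9, 377 and 304 normalised reads. Cd68, a lysosomal protein of macrophages, was at 149, 21.8 and 44.6 normalised reads. Neither of them had the muscle order. Of 10 endothelial markers 3 had a row, with Flt1, a receptor for vascular growth factor, at 86.8, 81.9 and 111 normalised reads. Esam, an endothelial adhesion molecule, was at 5.79, 11.3 and 3.62 normalised reads. Eng, endoglin, a TGF-beta co-receptor, was at 40.5, 81.0 and 10.8 normalised reads. Pecam1, which defines endothelium, was not analysed here. No row was held for any of the 6 erythroid markers, which were not analysed here. Fat cell markers other than Lpl were low, with Fabp4, the fatty acid binding protein of fat cells, at 6.51, 0.871 and 2.41 normalised reads. Among neural and glial markers S100b, a calcium-binding protein of glia and of cartilage and disc cells, was at 276, 717 and 1100.2 normalised reads. Ngfr, the low-affinity neurotrophin receptor, was at 6.51, 4.36 and 2.41 normalised reads. Gfap, a glial filament protein, was at 49.2, 129 and 0 normalised reads, with no read in set 3. Snap25, a synaptic vesicle fusion protein, was at 219, 266 and 68.7 normalised reads.

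Epithelial-type keratins were highest in set 3. Krt7, a keratin of simple epithelia, had 16.6, 87.1 and 1240.0 normalised reads, next to Krt8 and Krt18 given above. Epcam, the epithelial adhesion molecule, had 46.3, 18.3 and 21.7 normalised reads. Dsp, desmoplakin, had 0, 6.97 and 18.1 normalised reads. The keratin thus stood apart from the junction genes, which were low in each library. Msln, mesothelin, a surface protein of the linings of body cavities, had 437, 833 and 4929.8 normalised reads. The milk-whey-acidic-type inhibitor gene Wfdc18 had 1853, 1941 and 17028 normalised reads. The transcription factor gene Osr1 had 490.3, 272 and 2349.8 normalised reads. The highest level of each of these genes except Epcam was in set 3, the library with least muscle reads. Lrp2, the endocytic receptor megalin of absorptive epithelia, was the 1 gene with at least 100 normalised reads in set 3 (131) and at most 3 reads in each other library. The 1 gene with that pattern in set 1 was Lcp1, at 171, 0.871 and 0 normalised reads. Lcp1 was on none of the cell type lists, neither the epithelial nor the leukocyte list, so no list sum includes it. The cell type behind its reads was not tested. The 3 epithelial markers with a row summed to 62.9, 112 and 1279.7 normalised reads, and the part of epithelial cells in these values was not tested.

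Each library also had genes that set it apart, taken here as the 8 with the largest log2 gap above and the 8 with the largest gap below the nearer of the other libraries, among the 2901 genes that averaged 1000 or more normalised reads. Of those, 117 (4.03%) spread at least 4-fold. In set 1 the largest gap above was of Slc7a11, the cystine importer that feeds glutathione synthesis, at 11747, 1089 and 92.8 normalised reads, 10.8-fold over set 2. Akr1b8, an aldo-keto reductase, held 41363, 3016 and 4813 normalised reads. Reads of its close relatives may be mixed with it. The zinc exporter gene Slc30a1 held 6156, 1431 and 1245 normalised reads. Cxcl10, an interferon-induced chemokine, was at 2675, 112 and 446 normalised reads, highest in set 1 and lowest in set 2. Cdh15, the cadherin of muscle precursors, was at 3159, 610.0 and 69.9 normalised reads. Ankrd1, a stretch-responsive ankyrin repeat protein of muscle, was at 22819, 4504 and 1017 normalised reads. Cd200, a surface glycoprotein, was at 5128, 1206 and 282 normalised reads. Slc7a11, Slc30a1, Cdh15, Ankrd1 and Cd200 had the order of the muscle genes, set 1 over set 2 over set 3. These genes were chosen because set 1 was the highest, so only the order of sets 2 and 3 was free. Of all tested genes 24.0% had set 1 over set 2 over set 3, and 14.4% had set 1 over set 3 over set 2. The part of muscle cells in these values was not tested.

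On the low side of set 1 the largest gap was of Col14a1. This fibril-associated collagen had 994, 14451 and 20569 normalised reads, 14.5-fold below set 2. Nov, a matricellular protein of the CCN family, had 3798, 32850.0 and 23389.5 normalised reads. Fbn1, the microfibril protein fibrillin-1, had 1456, 7821 and 18882 normalised reads. Sets 2 and 3 were several times above set 1 in each of them. Svep1, a large adhesion protein, was at 1871, 10884 and 11299.5 normalised reads. Smoc1, a calcium-binding matrix protein, was at 454, 2247 and 2455 normalised reads. For Svep1 and Smoc1 the other libraries were close to each other. C2, a protease of the complement cascade, was at 897, 5531 and 11668 normalised reads. Tenm3, a teneurin adhesion protein, was at 439.7, 2604 and 8392 normalised reads. Lvrn, an aminopeptidase, had 1023, 7127 and 5693 normalised reads.

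Set 2 had Plat with the largest gap on the high side and Nqo1 on the low side. Plat, tissue plasminogen activator, was at 2475, 15955 and 1875 normalised reads, 6.45-fold above set 1. Col1a1, a chain of type I collagen, was at 8817, 53645 and 13663 normalised reads. Tnc, tenascin-C, was at 14085, 55887 and 5629 normalised reads. For Plat and Tnc set 3 was the lowest, and for Col1a1 it was set 1. Fbln1, the matrix protein fibulin-1, was at 2679, 8879 and 1033 normalised reads. Itga8, an integrin chain, was at 1079, 4482 and 579.6 normalised reads. Cemip, a hyaluronan-degrading protein, was at 994, 4117 and 286 normalised reads. These 3 were lowest in set 3. Mme, neprilysin, a peptide-cleaving surface enzyme, was at 529, 2998 and 746 normalised reads. Stc1, the secreted glycoprotein stanniocalcin-1, was at 887, 3090.0 and 222 normalised reads. On the low side Nqo1, a quinone reductase under control of the oxidative-stress factor NRF2, was at 31556, 3949 and 30719.7 normalised reads, 7.78-fold below set 3. Gstp1, a glutathione transferase, was at 25253, 4830.2 and 16117 normalised reads. Ptgr1, a prostaglandin and leukotriene reductase, was at 3407, 887 and 5531 normalised reads. Sets 1 and 3 were close for Nqo1, whereas Gstp1 was highest in set 1 and Ptgr1 in set 3. Apoe, apolipoprotein E, was at 5417, 1216 and 7319 normalised reads. Ftl1, the ferritin light chain, was at 2386, 773 and 2526 normalised reads, with reads of near-identical ferritin copies not told apart. Fst, the activin-binding follistatin, was at 3092, 926 and 2287 normalised reads. Met, the receptor of hepatocyte growth factor, was at 1516, 656 and 2073 normalised reads.

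**Figure D3:**
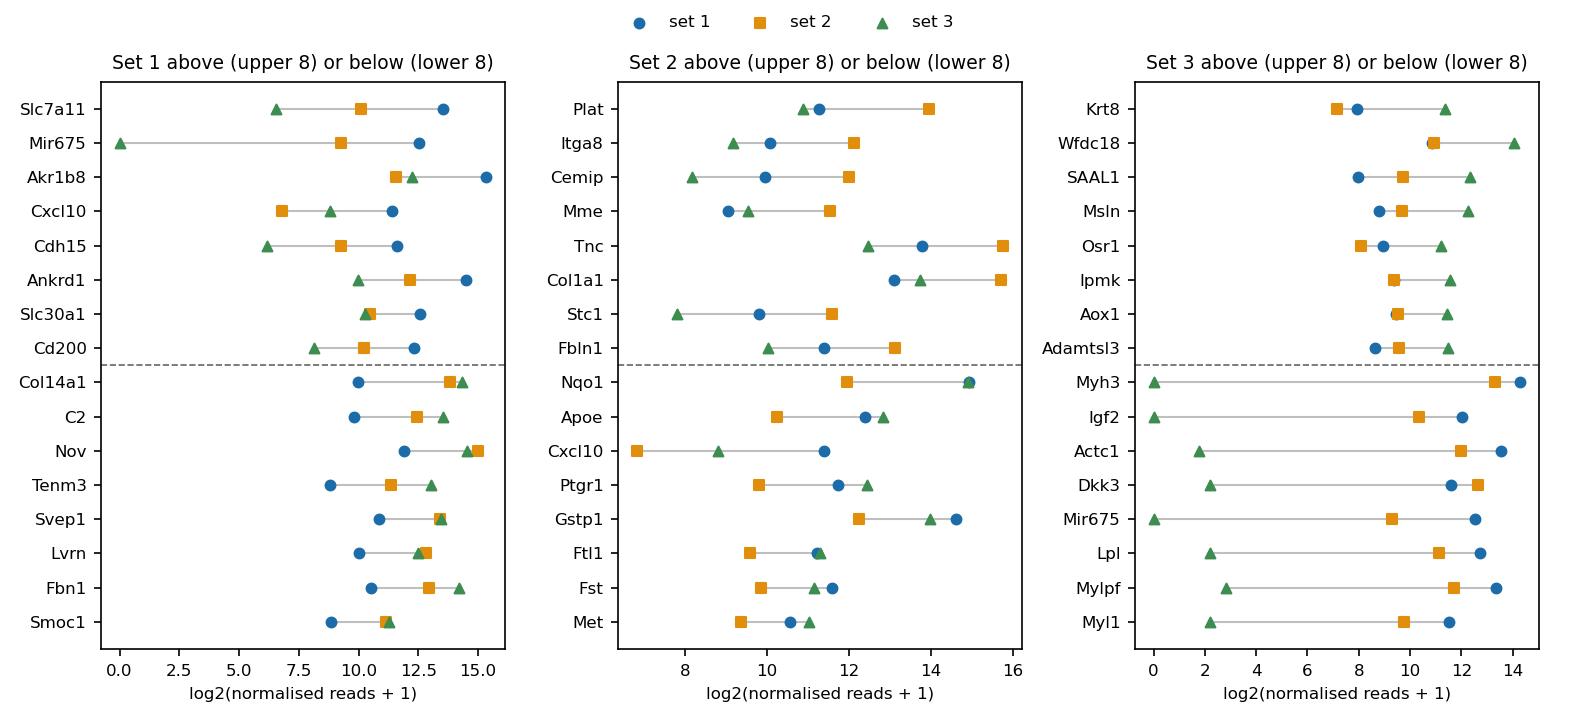
Normalised reads, on log2(value + 1) axes that differ between panels, of the genes with the largest gap between 1 library and the nearer of the others, among genes that average 1000 or more. Each panel is for 1 set, with the 8 genes above in the upper part and the 8 below under the dashed line. The lower part of the set 3 panel shows the widest gaps, led by Myh3 at 0 reads.

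In set 3 the genes above the others were, beside Krt8, Wfdc18, Msln and Osr1, Ipmk, Aox1, Adamtsl3 and a row named SAAL1. Ipmk, an inositol phosphate kinase, had 660.2, 671 and 3033 normalised reads. Aox1, aldehyde oxidase, had 696, 741 and 2814 normalised reads. Adamtsl3, an ADAMTS-like matrix protein, had 392, 761 and 2840.2 normalised reads, with set 1 the lowest. The row SAAL1 had 253, 848 and 5238 normalised reads. The genes below were Myh3, Igf2, Actc1, Dkk3, Mir675, Lpl, Mylpf and Myl1, all given above.

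Matrix and fibroblast genes were read at high levels in all libraries, with many of them uneven. Of 33 listed genes 32 were detected, against 85.7% of all 13373 genes. At least 4-fold spread was found for 12 of 33, against 9.53% of all tested genes. The median log2 range was 1.53, against 0.64 for all tested genes. Set 2 was the highest for 23 of 33 (20 with equal totals), against 26.8% of all tested genes. Here and below, shares of all tested genes are on the authors' scale, also where a count with equal totals stands beside them. Vim, vimentin, the intermediate filament of mesenchymal cells, was the most even, at 28247, 30522 and 33385 normalised reads. S100a4, a calcium-binding protein of fibroblasts, was at 16050.1, 21159 and 19847 normalised reads. Col5a1, a chain of type V collagen, was at 6121, 11749 and 6504 normalised reads. It was highest in set 2. Col5a2, its partner chain, was at 20487, 30170.4 and 15935 normalised reads. Col6a3, of type VI collagen, was at 4112, 4413 and 3255 normalised reads. Col1a2 had 11649.8, 16953 and 8418 normalised reads (log2 range 1.01), a narrower range than that of its partner chain Col1a1 (2.60). Several genes were lowest in set 3. Col3a1, type III collagen, had 19339, 24701 and 2419.7 normalised reads. Dcn, the small proteoglycan decorin, had 23486, 57875 and 3780.2 normalised reads. Its relative Lum, lumican, had 12884, 16801 and 2121 normalised reads. These 3 had set 2 as the highest. Postn, periostin, had 1244, 751 and 86.8 normalised reads. Fap, a surface protease of activated fibroblasts, had 205, 587 and 32.5 normalised reads, the widest of the list (log2 range 4.13).

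Other fibroblast genes had set 3 as the highest. Pdgfra, a receptor of platelet-derived growth factor, was at 2338, 6752 and 13926 normalised reads. Mfap5, a microfibril protein, was at 200.3, 111 and 1197 normalised reads. Bgn, biglycan, was at 6064, 17947 and 20439.6 normalised reads. So decorin and biglycan, related proteoglycans, were in different orders over the libraries. The crosslinking enzyme gene Lox was at 6587, 25863 and 17164 normalised reads, lowest in set 1. Eln, elastin, was low, at 15.2, 19.2 and 6.03 normalised reads.

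Genes that process collagen had a narrower median range than the matrix list. Of 15 tested, 2 spread at least 4-fold, against 9.53% of all tested genes, and the median log2 range was 0.71, against 0.64. Set 1 was the lowest for 12 of them, against 38.9% of all tested genes. Set 2 was the highest for 12 (8 where the libraries were scaled to equal totals), against 26.8%. Serpinh1, the collagen chaperone HSP47, was at 9389, 19840.0 and 15433 normalised reads. Plod2, which hydroxylates lysines of collagen, was at 15429, 23678 and 16898 normalised reads. Colgalt1, a collagen galactosyltransferase, was the most even, at 2760.2, 2462 and 2476 normalised reads. The widest was Leprel1, a prolyl 3-hydroxylase, at 21, 58.4 and 1.21 normalised reads. P4ha3, a catalytic subunit of collagen prolyl hydroxylase, was the other gene that spread at least 4-fold, at 59.3, 82.8 and 331 normalised reads.

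Cartilage-type matrix genes were mostly low. Of 25 listed genes 13 had a row, and 9 of the 13 were detected, against 85.7% of all 13373 genes. Acan, Col2a1 and Sox9, the genes that define this matrix, were among the 12 not analysed here. Vcan led the list, as given above. Col11a1, a minor fibrillar collagen that cartilage and cultured mesenchymal cells make, followed with 5891, 18801 and 12761 normalised reads. Col11a2, its partner in cartilage, had 30.4, 19.2 and 7.23 normalised reads. Hapln1, the link protein of aggrecan and hyaluronan, was at 83.9, 683 and 274 normalised reads. Col11a1 and Hapln1 were lowest in set 1 and highest in set 2. Has2, a hyaluronan synthase, was at 2271, 642 and 604 normalised reads. Fmod, fibromodulin, was highest in set 2, at 190.2, 1602 and 167 normalised reads. Has2 and Fmod thus had different sets as the highest. Sox5, a cofactor of Sox9, was at 65.8, 178 and 229 normalised reads. Sox6, which acts with it, was at 71.6, 171 and 106 normalised reads. Both were lowest in set 1. Cilp, an intermediate-layer protein of cartilage, was the most even, at 78.1, 62.7 and 72.3 normalised reads. Some members had few reads, among them Col9a2, a chain of type IX collagen, at 15.9, 18.3 and 2.41 normalised reads. Ucma, a matrix Gla protein of cartilage, was at 1.45, 21.8 and 16.9 normalised reads. Comp, cartilage oligomeric matrix protein, was at 35.4, 30.5 and 14.5 normalised reads. Prg4, lubricin, was at 7.95, 7.84 and 113 normalised reads, highest in set 3.

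Annulus and tendon genes were present alongside. Scx, scleraxis, a tendon and annulus transcription factor, was at 613, 503 and 311 normalised reads. Mkx, the tendon factor mohawk, was at 6.51, 6.10 and 15.7 normalised reads. Scx was lowest in set 3. Mkx had only 9, 7 and 13 reads. Its 95% counting intervals of 2.98 to 12.4, 2.45 to 12.6 and 8.34 to 26.8 normalised reads overlap, so its order over the libraries is uncertain. Thbs4, a tendon thrombospondin, was at 189, 47.1 and 43.4 normalised reads, far under Thbs1 and Thbs2 in reads. Kera, keratocan, was at 24.6, 1.74 and 1.21 normalised reads, and the fibril-associated collagens Col12a1 and Col14a1 were given above. Tnmd, tenomodulin, was not analysed here.

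**Figure D4:**
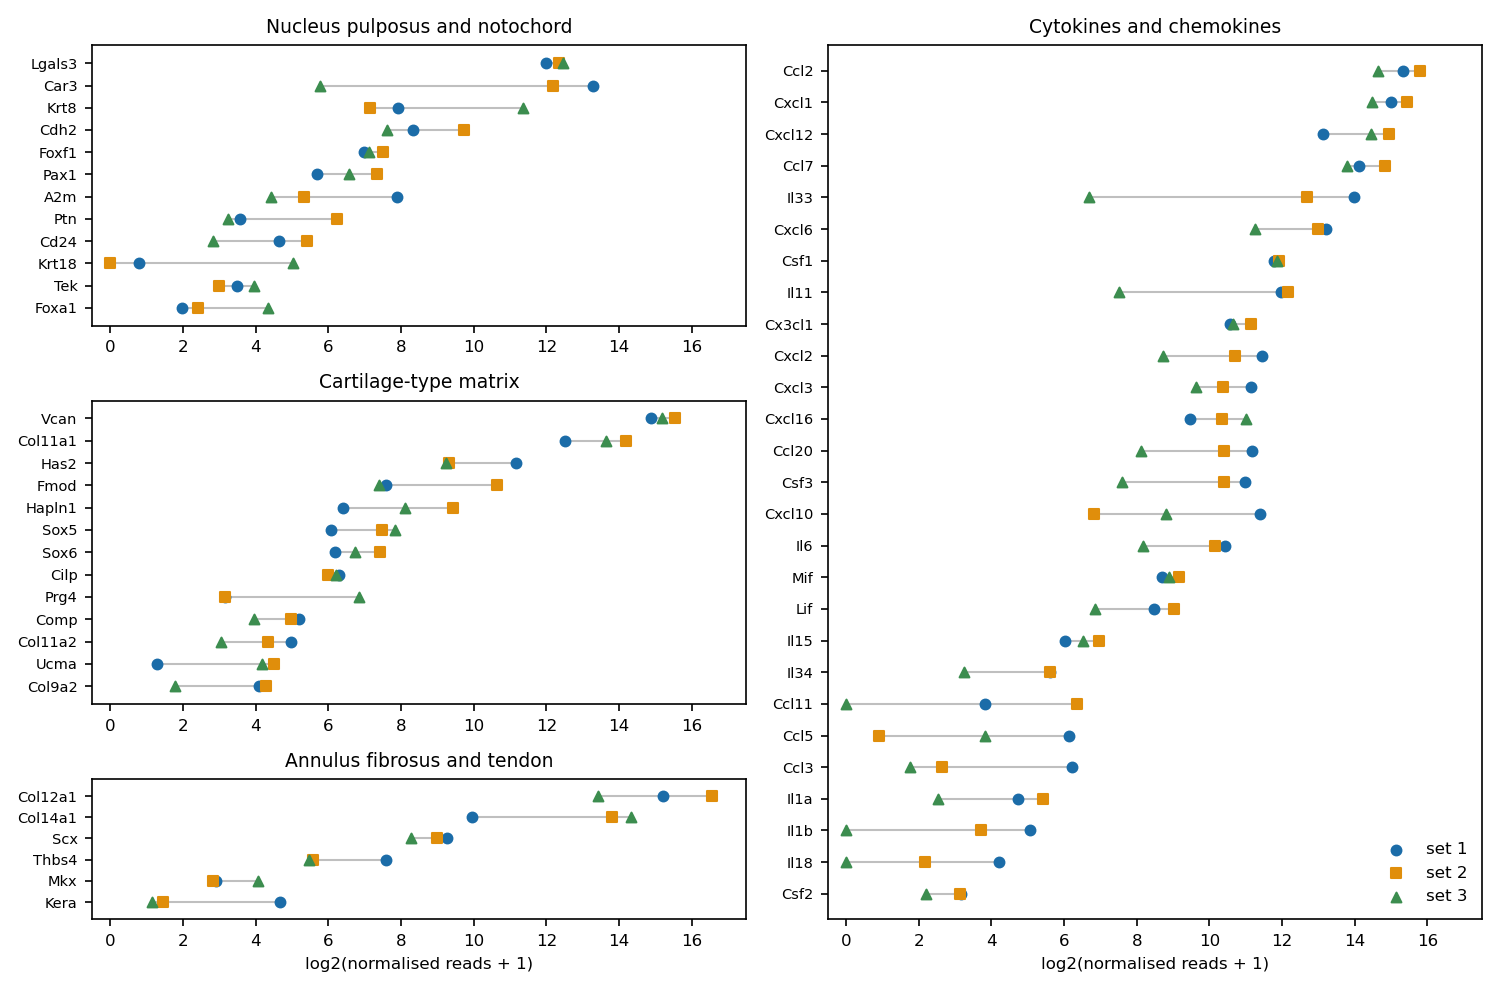
Normalised reads of listed disc, cartilage, annulus and cytokine genes with a row, on a log2(value + 1) axis, 1 marker per library and a grey line from lowest to highest. Lgals3, Foxf1, Scx and Csf1 have short lines, and Car3, Il33 and Ccl11 have long ones.

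Car3, a carbonic anhydrase listed with the disc markers, is also made by muscle, and it followed the muscle order, at 10054, 4667 and 53.0 normalised reads. A2m, a protease inhibitor, was at 234, 39.2 and 20.5 normalised reads in the same order. Cdh2, N-cadherin, which notochord and muscle precursors share, was at 317, 844 and 195 normalised reads, highest in set 2. Ptn, the heparin-binding factor pleiotrophin, was at 10.8, 74.1 and 8.44 normalised reads. The muscle list summed to 92912, 33842 and 437 normalised reads in the same order, and its part in Car3 was not tested.

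Contractile genes of the smooth muscle type, which cultured fibroblasts also use for stress fibres, were lowest in set 3 for 9 of 13 genes, against 35.8% of all tested genes. Tagln, transgelin, was at 29553, 20908 and 7101 normalised reads. Tpm1, a tropomyosin, was at 15369.6, 15869 and 5837 normalised reads. Myl9, a myosin light chain, was at 2792, 2759.7 and 678 normalised reads. Each was lowest in set 3. Cnn1, calponin-1, was at 189, 603 and 83.1 normalised reads, highest in set 2. Myh11, the smooth muscle myosin heavy chain, was the most even member, at 485, 562 and 465 normalised reads. Acta2, smooth muscle actin, was not analysed here. Tpm1, Tpm2 and Mylk are also made by skeletal muscle, whose part was not tested.

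Without any cytokine added, the cells held reads of inflammatory ligands. Of 27 cytokine and chemokine genes with a row 19 were detected, against 85.7% of all 13373 genes. Of 25 tested, 14 spread at least 4-fold, against 9.53% of all tested genes. Among the 14, Ccl3 (73.0, 5.23 and 2.41), Ccl5 (68.7, 0.871 and 13.3) and Il1b averaged 10 or more only through set 1. Ccl11 did so only through set 2. For such genes the filter itself favours a wide spread. Set 3 was the lowest for 17 of the 25 (18 with equal totals), against 35.8%. Ccl2, given above by its ranks, had 41332, 56609.5 and 25291 normalised reads. Ccl7, a further monocyte attractant, had 17621, 29307 and 14207 normalised reads. Cxcl1, a neutrophil attractant, had 32925, 44114 and 22941 normalised reads. Cxcl12, which retains stem cells and lymphocytes, had 8865, 31578 and 22181 normalised reads, lowest in set 1. These leading chemokines spread less than 4-fold. Csf1, the macrophage growth factor, was the most even, at 3499, 3863 and 3702 normalised reads. Mif, a stored cytokine, was at 417, 577 and 472 normalised reads. Both spread less than 1.5-fold. Cx3cl1, fractalkine, was at 1515, 2270.0 and 1599 normalised reads.

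Ccl2, Ccl7 and Cxcl1 were lowest in set 3, and so was a second group of ligands that spread more widely. Il33, an alarmin stored in the nucleus of stromal cells, had 16037, 6636 and 101 normalised reads. Il11, a cytokine of the IL-6 family, had 3999.7, 4564 and 181 normalised reads. Il6 itself was at 1367, 1128 and 288 normalised reads. Il33 was the widest of the list, and Il6 had the same order. Lif, a further member of that family, was at 354, 522 and 113 normalised reads. Csf3, the granulocyte growth factor, was at 2029, 1361 and 192 normalised reads. Ccl20, a lymphocyte attractant, was at 2322, 1344 and 278 normalised reads. Csf3 and Ccl20 had the order of Il33, whereas Lif was highest in set 2. The neutrophil attractant Cxcl6 was at 9489, 8126 and 2423 normalised reads. Its relative Cxcl2 was at 2806, 1649.6 and 424 normalised reads. Cxcl3, a close copy of Cxcl2, was at 2246, 1329 and 792 normalised reads, and the split of reads within this family is uncertain. The skeletal muscle list, which summed to 92912, 33842 and 437 normalised reads, was lowest in the same library, and its part in this order was not tested. Interleukin-1 genes were low throughout, with Il1a at 25.3, 41.8 and 4.82 normalised reads. Il1b was at 32.5, 12.2 and 0 normalised reads. Csf2, a granulocyte and macrophage growth factor, was at 7.95, 7.84 and 3.62 normalised reads. Ccl11, eotaxin, was at 13.0, 81.0 and 0 normalised reads.

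Receptors had a different order over the libraries. Set 1 was the lowest for 19 of 24 receptor genes (15 with equal totals), against 38.9% of all tested genes. At least 4-fold spread was found for 2 of 24, near the 9.53% of all tested genes. Il6st, the shared signalling chain gp130 of the IL-6 family, was at 18636, 26917 and 42667 normalised reads. Il6r, which binds IL-6 itself, was at 135, 146 and 209.7 normalised reads. Both were highest in set 3, the library with least Il6. Osmr, the oncostatin M receptor, was at 1514, 3588 and 3626 normalised reads. Il11ra1, the IL-11 receptor, was at 764, 765 and 934 normalised reads. Il1r1, the signalling IL-1 receptor, was at 872, 1652 and 621 normalised reads. It was highest in set 2. Il1rl1, the receptor of IL-33, was at 2629, 2623 and 241 normalised reads and was low in the same library as its ligand. Tlr2, a sensor of bacterial lipoproteins and matrix fragments, was at 4047, 7402 and 12750.4 normalised reads. Tlr4, the endotoxin sensor, was at 511, 715 and 518 normalised reads. Tlr2 was more uneven than Tlr4. Axl, a receptor kinase of fibroblasts, was at 8016, 13075 and 13693 normalised reads. Egfr, the epidermal growth factor receptor, was at 390.5, 593 and 1730.4 normalised reads, highest in set 3. Tgfbr1, a TGF-beta receptor, was even, at 1009, 1385 and 1175 normalised reads. Tgfbr2, its partner, was at 1553, 1941 and 1888 normalised reads.

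The machinery that senses TNF spread about as much as other genes did. Of 19 tested genes 0 spread at least 4-fold, against 9.53% of all tested genes, and the median log2 range was 0.62, against 0.64. Tnfrsf1a, the main TNF receptor, was at 1345, 1523 and 1902 normalised reads. Tnfrsf1b, the second, was at 898, 1213 and 737 normalised reads. Tnfrsf1a ranked 2089, 1870 and 1398 by reads. Traf2, an adaptor at the receptor, was at 978, 690.1 and 1065 normalised reads. Ripk1, a kinase recruited there, was at 1038, 1128 and 941 normalised reads. Chuk, a kinase that releases NF-kB, was at 1451, 1157 and 933 normalised reads. Ikbkb, its partner kinase, was at 631, 942 and 656 normalised reads. Chuk was highest in set 1 and Ikbkb in set 2. Nfkbib, an inhibitor of NF-kB, was the most even of the list, between 182 and 205 normalised reads. Of the NF-kB subunits Nfkb1 was at 3785, 3524 and 3238 normalised reads. Rela was at 799.8, 976 and 936 normalised reads. Rel was the widest of the list, at 106, 46.2 and 74.7 normalised reads, and no subunit spread 4-fold. The inhibitor gene Nfkbia, whose product holds NF-kB in the cytoplasm, was at 2391, 2673 and 4683 normalised reads. The feedback inhibitor gene Tnfaip3 was at 505, 339.8 and 469 normalised reads. The ligand gene Tnf was near the floor, at 5.06, 0 and 12.1 normalised reads.

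Proteases of the matrix and their inhibitors were read in every library. Mmp3, stromelysin-1, was at 44796, 21273 and 17585 normalised reads, highest in set 1. Ctsb, a lysosomal protease, was at 20523, 31727 and 38076 normalised reads. Ctsl, another, was at 28087, 15970.1 and 19012 normalised reads. Mmp3 ranked 6, 57 and 60 by reads. Ctsd, the lysosomal aspartic protease, was the most even of the list, at 14784, 15432 and 16003 normalised reads. Mmp13, a collagenase, was at 4484, 10246 and 1123 normalised reads. Mmp14, a membrane-bound activator of other proteases, was at 4000.4, 8582 and 4462 normalised reads. Both were highest in set 2. Mmp2, a gelatinase, was at 3755, 3874 and 982 normalised reads, lowest in set 3. Mmp9, its relative, was at 244, 125 and 183 normalised reads. Of the aggrecan-cleaving enzymes Adamts1 was at 15411, 17553 and 6091 normalised reads. Adamts5 was at 2531, 3295 and 2267 normalised reads. Adamts4 was at 74.5, 122 and 63.9 normalised reads, so it had the fewest reads of the 3 in each library. Adamts15 was highest in set 3, at 119, 146 and 1452 normalised reads. Timp1, an inhibitor of these proteases, was at 6343, 12871 and 14897 normalised reads. Timp2, its relative, was at 9219, 13709.7 and 12495 normalised reads. Timp3, which is held in the matrix, was at 4024, 4419.7 and 986 normalised reads. Timp1 and Timp2 were lowest in set 1, and Timp3 in set 3. Mmp12, macrophage elastase, was the widest of the list, at 38.3, 1.74 and 10.8 normalised reads. Of the list 9 of 29 spread at least 4-fold, against 9.53% of all tested genes. Among the 9 was Mmp12, which averaged 10 or more only through set 1.

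Growth factors and their binding proteins had a different leading gene in each library, Ctgf in set 1, Grem1 in set 2 and Nov, given above, in set 3. Grem1, the BMP antagonist gremlin, was at 9026, 35367 and 15225 normalised reads. Ctgf, a CCN family gene that responds to cell tension, was at 11711, 18139.9 and 5482 normalised reads. Cyr61, of the same family, was at 4557, 6529 and 1842 normalised reads, and both were lowest in set 3. Igfbp7, a secreted binding protein, was at 7627, 16077 and 11683 normalised reads. Igfbp5, another binding protein of insulin-like growth factors, was at 3559, 2430.3 and 34.9 normalised reads and followed the muscle order together with Igf2. Inhba, which encodes activin A, was at 2847, 3527 and 1162 normalised reads. Fgf7, a fibroblast growth factor for epithelia, was at 2889, 1848 and 1206 normalised reads. Both were lowest in set 3. Tgfb2, a TGF-beta, was even, at 769, 791 and 995 normalised reads. Bdnf, a neurotrophin, was the most even of the list, at 938, 811 and 898 normalised reads. Bmp4, a bone morphogenetic protein, was at 389.8, 1254 and 1253 normalised reads, lowest in set 1. Bmp2, its relative, was at 584, 403 and 71.1 normalised reads, lowest in set 3. Gdf5, a growth factor of joint development, was at 19.5, 8.71 and 0 normalised reads. Gdf6, its relative in the spine, was at 298, 141 and 22.9 normalised reads, and both had the muscle order. Of the list 12 of 34 spread at least 4-fold, against 9.53% of all tested genes.

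Integrins couple cells to the matrix above. Most reads among them were of Itgb1, the common beta chain, at 26045, 35726 and 18019 normalised reads. Itgb5, which pairs with the alpha V chain, was at 9886, 19393 and 17503 normalised reads. Itga5, the fibronectin receptor chain, was at 2069.6, 4158 and 1716 normalised reads. Each was higher in set 2 than in set 1. Itgav was at 2462, 6595 and 4608 normalised reads. Itga11, a collagen receptor chain of fibroblasts, was at 1725, 3149 and 1517 normalised reads. Itga3, a laminin receptor chain, was the most even, at 2837, 2643 and 2763 normalised reads. Itga7, the laminin receptor chain of muscle, was at 13129, 4835 and 1758 normalised reads. Itga4, which leukocytes and muscle precursors use, was at 452, 67.1 and 1.21 normalised reads. Both had the muscle order, and the part of muscle cells was not tested. Cd44, the hyaluronan receptor, was at 12181, 15559.7 and 8627 normalised reads. Sdc4, a heparan sulfate proteoglycan of focal adhesions, was at 12929, 17846 and 16362 normalised reads. Of the list 8 of 25 spread at least 4-fold, against 9.53% of all tested genes.

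Genes of osmotic adaptation were measured at baseline. Nfat5, which encodes TonEBP, was at 789, 1571 and 2106 normalised reads, lowest in set 1. Of the genes below, none had the order of Nfat5. Slc6a6, the taurine importer, was at 1124, 1785 and 938 normalised reads. Akr1b1, the sorbitol-making aldose reductase, was at 9502, 3305 and 4865 normalised reads. Slc38a2, an amino acid importer, was the most even, at 8112, 9717 and 6879 normalised reads. Nfat5 ranked 3592, 1804 and 1230 by reads. Hspb1, a small heat-shock protein, was at 4423, 4296 and 3097 normalised reads. Sgk1, a salt-induced kinase, was at 809, 1067 and 411 normalised reads. Aqp1, a water channel, was at 176, 54.9 and 493 normalised reads, the widest of the 9 with a row (log2 range 3.14). Akr1b1 has near relatives, among them Akr1b8, so its reads are uncertain.

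Energy and oxygen genes were among the most even. Of 25 glycolysis and hypoxia genes 0 spread at least 4-fold, and the median log2 range was 0.38, against 9.53% and 0.64 for all tested genes. Hif1a, the oxygen-regulated factor that disc cells hold active in tissue, was at 5945, 7121 and 9414 normalised reads. Its relative Epas1 was at 172, 184 and 153 normalised reads. Hif1a was highest in set 3. Aldoa, a glycolytic aldolase, was at 14835, 12864 and 11912 normalised reads. Pgk1, phosphoglycerate kinase, was at 8606, 9381 and 10586 normalised reads. Pgam1, the next enzyme of the path, was the most even, at 3859, 3759 and 3962 normalised reads. Ldha, lactate dehydrogenase, was at 2814, 2483 and 2199 normalised reads. Aldoa and Ldha were highest in set 1, Pgk1 in set 3. The glucose importer gene Slc2a1 was at 2269.9, 2049.5 and 1424 normalised reads. Slc2a3 was near the floor, at 10.1, 5.23 and 3.62 normalised reads. Car9, a hypoxia-induced carbonic anhydrase, was lowest in set 1, at 1821, 4675 and 4884 normalised reads, the widest of the list (log2 range 1.42). Gapdh had 1098, 1042 and 1138 normalised reads, fewer reads than Pgk1, and it has many processed copies in the genome, so its level is uncertain.

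Antioxidant and detoxification genes were mostly highest in set 1 and lowest in set 2. Set 1 was the highest for 12 of 18 genes (13 with equal totals), against 38.4% of all tested genes, and set 2 was the lowest for 11 (12 with equal totals), against 25.4%. Txnrd1, thioredoxin reductase, was at 11280.3, 3894 and 4319 normalised reads. Gclc, the rate-limiting enzyme of glutathione synthesis, was at 3400.2, 817 and 1223 normalised reads. Hmox1, heme oxygenase-1, was at 3055, 1561 and 1326 normalised reads, highest in set 1 and lowest in set 3. Nqo1, Akr1b8 and Slc7a11, given above, were also highest in set 1. Sod1, a constitutive superoxide dismutase, was at 4005, 3337 and 3581 normalised reads. Gpx1, a glutathione peroxidase, was the most even of the list, at 2192, 2199 and 2014 normalised reads. Cdo1, which degrades cysteine, had the reverse order of Slc7a11, which imports its dimer, with 586, 1577 and 4032 normalised reads.

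Of 31 cell cycle genes 29 were detected, against 85.7% of all 13373 genes. Set 3 was the highest for 18 (17 with equal totals), against 34.8% of all tested genes, and 2 spread at least 4-fold, against 9.53%. Mki67, a protein of cycling cells, was at 436, 499 and 922 normalised reads. Top2a, the topoisomerase of mitotic chromosomes, was at 635, 921 and 1315 normalised reads. The kinase gene Cdk1, which starts mitosis, was at 349, 555 and 581 normalised reads. Cenpf, a kinetochore protein, was at 489, 885 and 2173 normalised reads. These mitotic genes were highest in set 3, whereas Mcm2, a replication helicase subunit, had 1046, 781 and 978 normalised reads. Pcna, the replication clamp, had 2893, 1253 and 1251 normalised reads. Mcm2 and Pcna were highest in set 1. Ccnd1, the cyclin of growth-factor entry, was at 14535, 12227 and 6150.4 normalised reads. Ccnd2 had 1 read in set 3, at 94.0, 137 and 1.21 normalised reads. Tyms, thymidylate synthase, was the most even, at 386, 388 and 409 normalised reads. Arrest genes were read in the same cultures. Of 12 tested 0 spread at least 4-fold, against 9.53% of all tested genes, and their median log2 range of 0.59 was near the overall 0.64. Cdkn1a, a p53-induced cell cycle inhibitor, was at 4941, 5024 and 3383 normalised reads. Cdkn2a, a senescence-linked inhibitor, was at 168, 191 and 176 normalised reads. Both spread less than 1.5-fold. Mdm2, the p53 ligase and the most even of the list, was at 3579, 3622 and 3285 normalised reads. Gadd45a, a DNA damage gene, was the widest, at 2352, 1677 and 946 normalised reads. Immediate early genes answer serum and stress. Fos was at 68.7, 63.6 and 118 normalised reads. Egr1 was at 247, 137 and 511 normalised reads. Junb was the most even of them, at 2424, 2149.7 and 2585 normalised reads. Atf3, a stress factor, was the widest, at 81.0, 34.0 and 8.44 normalised reads.

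Chaperones of the secretory pathway differed mostly in 1 direction. Of 15 chaperone genes of the endoplasmic reticulum and its stress response 0 spread at least 4-fold, against 9.53% of all tested genes, but the median log2 range was 0.95, above the 0.64 of all tested genes. Set 2 was the highest for 12 (11 with equal totals), against 26.8%, and set 1 the lowest for 10, against 38.9%. Hspa5, the chaperone BiP, was at 25464, 37967 and 21300.0 normalised reads. Hsp90b1, a chaperone of receptors and integrins, was the widest, at 12741, 30749.9 and 17966 normalised reads. Calr, calreticulin, was at 16879, 36487 and 28951 normalised reads. Set 2 was the highest for each. Canx, calnexin, was the most even, at 16765, 26209.9 and 19969.7 normalised reads. Ddit3, the stress factor CHOP, was at 518, 484 and 230.2 normalised reads. Atf4, the factor above it, was at 7982, 6853 and 3919.9 normalised reads. Ddit3 and Atf4 were lowest in set 3.

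Mitochondrially encoded genes and ribosomal protein genes stood on opposite sides in set 2. All 13 mitochondrial genes were lowest in set 1, against 38.9% of all tested genes. Set 2 was the highest for 11 (10 with equal totals), against 26.8%. Mt-co2, an oxidase subunit, was at 2040.0, 9503 and 3287 normalised reads. Mt-cyb, cytochrome b, was at 359, 1133 and 930.3 normalised reads. Mt-nd6, a subunit of the NADH dehydrogenase, was the widest, at 26.0, 235 and 69.9 normalised reads. The list summed to 0.336, 0.978 and 0.447% of normalised reads. At least 4-fold spread was found for 8 (5 with equal totals), against 9.53% of all tested genes. Of 65 ribosomal protein genes, 50 were lowest in set 2 (52 with equal totals), against 25.4% of all tested genes, and 2 spread at least 4-fold, against 9.53%. Rplp0, a stalk protein of the ribosome, was at 24911, 18267 and 26196 normalised reads. Rpl39l, a copy of Rpl39, was the widest, at 97.6, 129.8 and 1.21 normalised reads. Ribosomal genes have many processed copies, so single values are uncertain.

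Genes in common use as references differed in how well they held over the libraries. Ppia, cyclophilin A, was the most even of 19, at 989, 989.9 and 1003 normalised reads (log2 range 0.02). Ywhaz, a 14-3-3 protein, was next, at 11006, 10104 and 10825 normalised reads. Actb varied by 1.64-fold from lowest to highest and Gusb, beta-glucuronidase, by 1.86-fold. Tfrc, the transferrin receptor, was at 3509, 953 and 534 normalised reads, a 6.57-fold spread. Polr2a, the large subunit of RNA polymerase II, was at 419, 560.3 and 1979.9 normalised reads, a 4.73-fold spread. Over all genes that averaged 1000 or more, the 10 with the smallest SD of log2 levels were led by Poglut1, an O-glucosyltransferase of Notch, at 2450.0, 2452 and 2445 normalised reads. Abcd3, a peroxisomal transporter, was at 1415, 1417 and 1409 normalised reads. Il17ra, the IL-17 receptor, was at 1109, 1107 and 1117 normalised reads. The others were Pmm1, Csnk1d, Rap2c, Dynlrb1, Ttc9c, Xrn2 and Elavl1. They were chosen from 2901 genes for this evenness, so it is a description of these libraries.

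Hox genes, which record the position of a cell along the body, had a median log2 range of 1.13, wider than the 0.64 of all tested genes and narrower than the 1.53 of the fibrillar matrix list. Of 20 with a row 17 were detected, against 85.7% of all 13373 genes. Of 18 tested, 1 spread at least 4-fold, against 9.53% of all tested genes. Hoxb7 had most reads of them, at 370.2, 356 and 439.8 normalised reads. Hoxd8, of a more caudal group, was at 229, 204 and 255 normalised reads. Hoxd9 was at 137, 227 and 227 normalised reads. Hoxb7 and Hoxd8 were highest in set 3. Hoxd10 was at 161, 390.4 and 383 normalised reads, lowest in set 1. Hoxc10 was at 34.7, 61.9 and 107 normalised reads, and it too was lowest in set 1. Hoxd13, of the most caudal group, was the exception in spread and was highest in set 1, at 221, 41.8 and 32.5 normalised reads. Hox genes without a row were not analysed here, so the order along the body is incomplete.

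Bone genes had few reads apart from Spp1, given above. Ibsp, bone sialoprotein, was at 34.7, 48.8 and 10.8 normalised reads. Alpl, tissue alkaline phosphatase, was at 30.4, 41.8 and 34.9 normalised reads. Both mark mineralising cells. Runx2, a bone transcription factor, was at 184, 112 and 269 normalised reads. Ctsk, a collagen-degrading cathepsin of osteoclasts and fibroblasts, was at 310.2, 1024 and 623 normalised reads.

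Set beside each other, the lists of at least 6 tested genes ranged from a median log2 range of 0.36 for reference genes and 0.38 for glycolysis and hypoxia to 7.85 for skeletal muscle. Nucleus pulposus and notochord markers were second, at 2.61, with 7 of 11 spread at least 4-fold, against 9.53% of all tested genes. Cytokines and chemokines followed at 2.24, whereas their receptors were at 1.08 and the TNF and NF-kB machinery at 0.62, near the 0.64 of all tested genes. By this median the disc markers were less even than the lists of matrix, receptors or metabolism. Krt8, highest in set 3, and Car3, lowest in set 3, were among their widest members. Cd24, whose log2 range of 2.61 was the median, had 33, 48 and 5 reads, and Krt18 had 1, 0 and 26. Krt18 averaged 10 or more normalised reads only through set 3, and Ptn only through set 2. Lgals3, Foxf1 and Pax1 had narrower log2 ranges of 0.45, 0.52 and 1.64. The part of low counts and of muscle cells in the median of the disc markers was not tested.

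**Figure D5:**
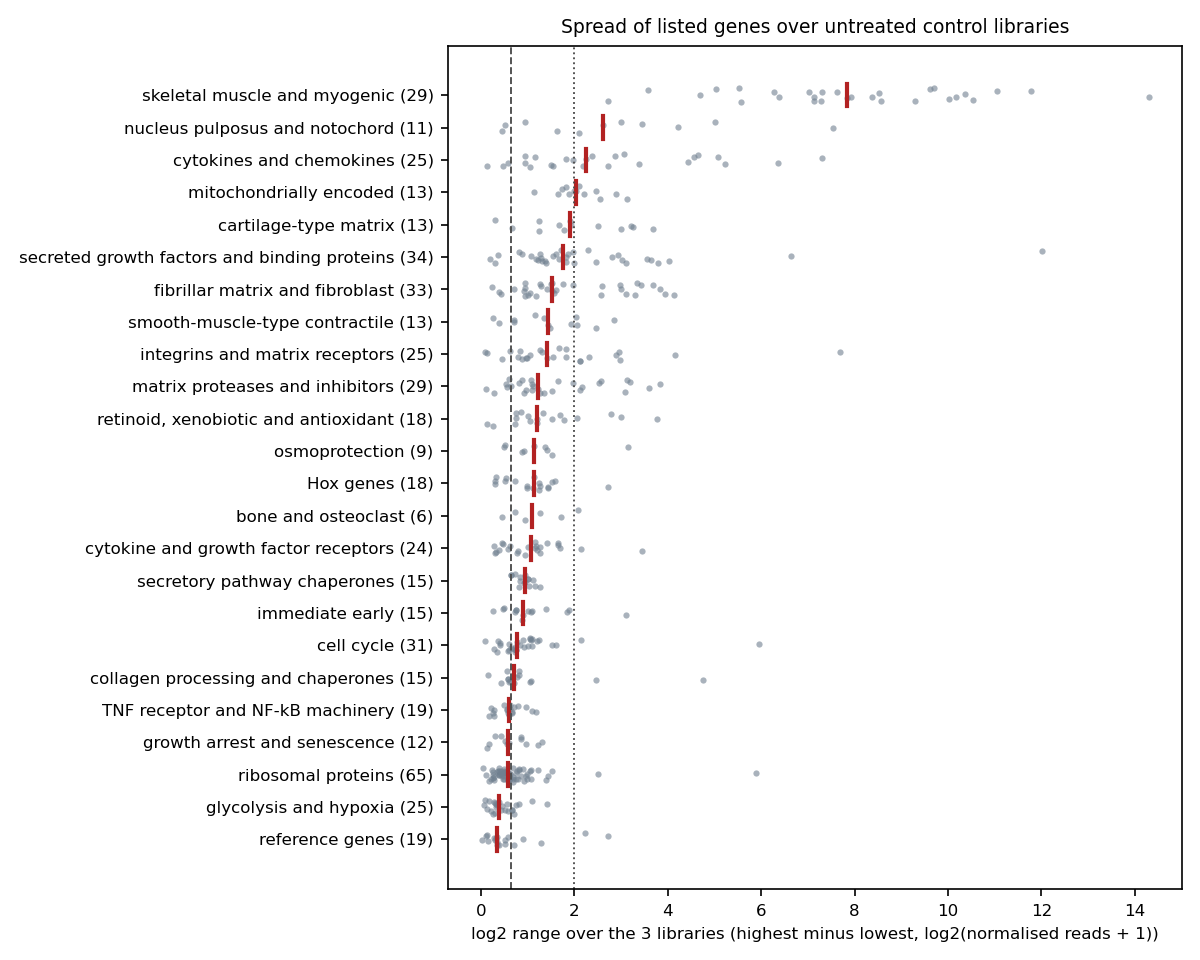
Log2 range over the 3 untreated control libraries of each listed gene that averages 10 or more normalised reads (points), for lists of at least 6 such genes (number in brackets), with the median of each list as a red bar. The dashed line is the median of all tested genes and the dotted line is the 4-fold limit. Skeletal muscle lies to the right of the dotted line as a whole, and reference genes lie lowest by median.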

How the data were processed

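RNA-seq of cultured rat nucleus pulposus cells was analysed in the 3 untreated libraries with the control vector. The authors deposited a normalised signal per gene in tables of 6 libraries each, per the file headers. Novoalign 2.08.01, DESeq2 (version not given) and build rn5 are named in the submitters' processing notes with no role or order. For the read counter, annotation release, gene filter, strand and repeat-mapping reads, nothing is stated in the sources used here. Values were whole multiples of the smallest value above 0 of their library, within 0.001 read, for 100% of values, so reads were recovered by division. The library totals ran from 10703380 to 16861613 reads, and counting error was large for genes with few reads, also above the floor of 3. Tek, with 14, 8 and 12 reads, had 95% counting intervals of 5.53 to 17.0, 3.01 to 13.7 and 7.47 to 25.3 normalised reads.

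The main values are those of the table shared with the TNF-a libraries. The table shared with the knockdown libraries served as an alternative and held equal reads for 100% of 13190 common genes. Log2 ranges use a pseudocount of 1 and genes with a mean of at least 10. One group without a contrast leaves no comparison to test, so no p-value is given, and the count test that recovered reads would allow was not applicable. The planned ranking per coding length was not run, because no coding lengths were used here. The members and lists were chosen with earlier results of these data known. Named genes follow a rule (most reads, smallest SD, largest gap per library, and for each list its leading, widest, narrowest and defining members), and further members of a list were named after their values were seen. Where a symbol had several rows, the row with the highest mean was taken. Of 13373 rows, 18 names had been turned into dates, 50 had no symbol, and 12231 matched a RefSeq name, through which promoters and microRNAs were joined. Calculations used Python 3.11.15, pandas 2.3.3, scipy 1.17.1 and, for TMM factors, edgeR 4.0.16, and were tested on simulated data.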

Additional observations from a re-analysis of the deposited data

How the results depend on the processing

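No paired analysis was possible because 1 group with 1 library per set was used and no groups were compared. The count of detected genes stayed within 1.5 times under each alternative run (8740 with a minimum of 100 normalised reads to 12857 with a minimum of 1). Scaling to equal totals moved the median gene by 0.27, 0.03 and 0.19 on the log2 scale in sets 1, 2 and 3, and counts of list orders printed above that it changed are given beside them. The shares of all tested genes were not recomputed with equal totals, so those counts have no background on their own scale. The count of genes spread at least 4-fold was 488 with a mean of at least 100 and 3584 at a 2-fold limit, against 1181, and 371 to 904 with 1 library left out. The median log2 range, 0.64, was 0.30 to 0.49 with 1 library left out, where fewer samples narrow a range by construction. Mean Spearman's rho was 0.938, 0.902 with a mean of at least 100, and 0.909 to 0.954 with 1 library left out; the cause was not tested. Genes shared by the 100 leading genes numbered 56, and 65 to 75 with 1 library left out. The share of the 10 leading genes was 8.40% without mitochondrial and ribosomal genes, and 7.09% to 9.79% with 1 library left out. With a pseudocount of 0.1 or 10 the count of genes spread at least 4-fold was 1233 or 789. Without the listed muscle genes, chosen after seeing the data, 1152 genes spread at least 4-fold. Of 84 list counts recomputed under 3 scalings, an alternative also added after seeing the data, 81 stayed within 1.5 times. The ranking per coding length was not run.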
